A study of Homo sapiens with 8 samples.

Results

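The control libraries of Hep3B cells, 4 of the 8 RNA-seq libraries of the series, were examined. Each library was placed in its group by its label. The Hep3B group holds 2 libraries of untransfected cells, numbered 1 and 2, and the scramble group holds 2 libraries of the same line transfected with a control siRNA, also numbered 1 and 2. All 4 are labelled WT, were grown in the same medium with serum at 5% CO2, and served as the baselines of a SOX4 knockout and of a STAT6 siRNA knockdown, the other 4 libraries of the series. The transfected and untransfected cells are in separate tables, so transfection and table cannot be told apart. No label says whether a number marks a separate culture, so p-values measure the spread between these libraries, which may be technical.

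Hep3B is a human hepatocellular carcinoma line that carries integrated hepatitis B virus DNA and lacks working RB1. Hepatocytes make most plasma proteins, under control of factors such as HNF4A, FOXA2 and CEBPA, and liver tumours often switch fetal liver genes such as AFP, IGF2, H19 and GPC3 back on. A scramble siRNA is a short double-stranded RNA with no intended target, used to show what transfection alone does. Double-stranded RNA can be sensed by IFIH1, DDX58 and EIF2AK2, which can start an interferon response.

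The totals were 18484804 and 18123854 expected counts in Hep3B 1 and 2, and 18096907 and 20272261 in scramble 1 and 2. Of the genes measured, 14826 genes were in both tables and 13775 passed the filter on low counts. The libraries of a group did not always lie closest to each other. Over the tested genes, 22.3% differed by more than 1 on the log2 scale between Hep3B 1 and Hep3B 2, 21.8% between Hep3B 1 and scramble 2, and 54.4% between Hep3B 1 and scramble 1. Scramble 1 stood apart with base composition: Spearman's correlation of its log ratio to Hep3B 1 with GC content was 0.68 across genes, against 0.39 for scramble 2 and -0.09 for Hep3B 2. In the class of genes lowest in GC content, with a median of 39.2%, the median log2 difference from the Hep3B mean was -2.08 in scramble 1 and -0.68 in scramble 2. In the class highest in GC content the same medians were 1.05 and 0.36. The part of base composition in each result below was not tested beyond a fit with offsets for GC content and length.

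**Figure D1:**
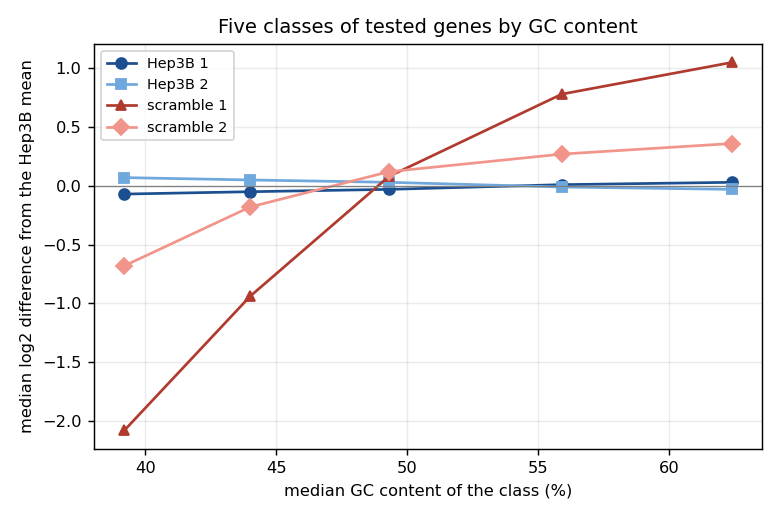
Each point is the median log2 difference of a library from the mean of both Hep3B libraries (vertical axis), over 2722 genes of 1 of 5 classes by GC content (horizontal axis, in percent). The line of scramble 1 runs from -2.08 to 1.05 and that of scramble 2 from -0.68 to 0.36, while both Hep3B lines stay within 0.07 of 0.

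The genes with the highest level per length (expected counts divided by transcript length, scaled to the same total in every library) were those of iron storage, secretion, the cytoskeleton and translation. The ferritin light chain gene FTL had levels of 4221 and 17406 in Hep3B 1 and 2 and 18944 and 11813 in scramble 1 and 2. Hep3B 1 was the low library for FTL, and the groups overlapped. APOA2, an apolipoprotein of high-density lipoprotein, had levels of 8875 and 6241 in Hep3B and 12966 and 10041 in scramble. ALB, the gene of serum albumin, ranked 3, 2, 7 and 3 among 14605 genes in Hep3B 1, Hep3B 2, scramble 1 and scramble 2. Of the 20 highest genes, 8 belong to ribosomal proteins, among them RPS15, RPS16, RPS18, RPL8, RPL19, RPL41 and the pseudogene RPL13AP5, which shares reads with RPL13A and is uncertain. The others were ACTB, ACTG1 and TUBB of the cytoskeleton, the actin-binding TMSB10, the elongation factors EEF1A1 and EEF2, GAPDH of glycolysis, FTH1, the other ferritin chain, and H19, an imprinted fetal RNA. Of these, 12 were among the 20 highest in every library taken alone, and 60 genes were among the 100 highest in every library. Ranked by counts without length, 10 of the 20 genes stayed in the top 20.

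**Figure D2:**
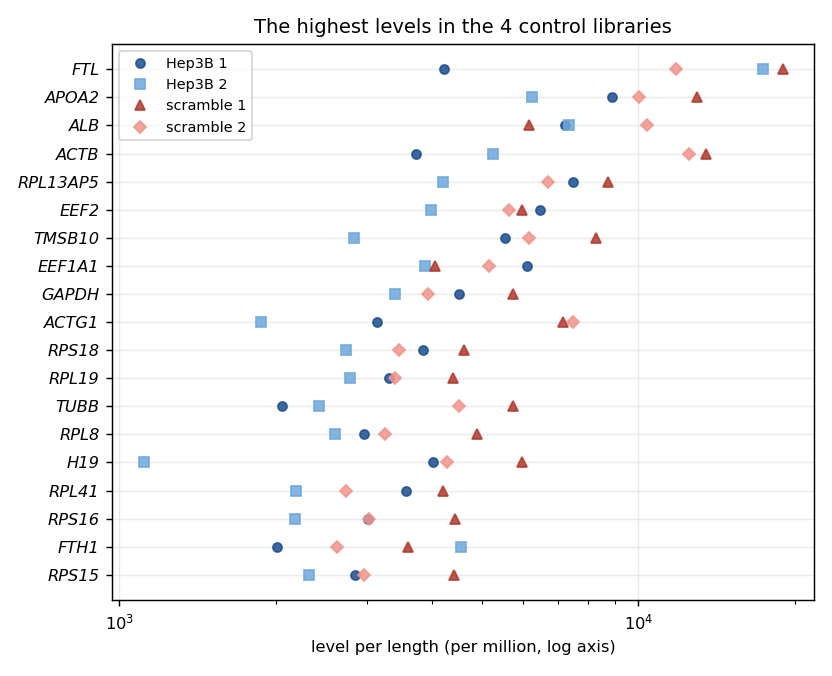
Levels per length (horizontal log axis, scaled to the same total in every library) of 19 of the 20 genes highest over the 4 controls, with 1 point per library. FTL spans 4221 to 18944, and ACTB lies at 3721 and 5257 in Hep3B and at 13492 and 12528 in scramble.

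All 4 markers of hepatocellular carcinoma were present in every control library, and none passed the test between groups. ALB had levels per length of 7221 and 7345 in Hep3B 1 and 2 and 6146 and 10375 in scramble 1 and 2. In CPM (TMM-scaled counts relative to library size) it was 6928, 6534, 8323 and 10514, with a log2 fold change of 0.48 ± 0.54 (SE) for scramble against Hep3B (edgeR adjusted p = 0.616). AFP, the fetal counterpart of albumin, was far lower, with levels per length of 131, 30.0, 60.8 and 92.3 in the same order. AFP was lowest in Hep3B 2 and highest in Hep3B 1, so the groups overlapped, and its log2 fold change was 0.20 ± 0.60 (edgeR adjusted p = 0.865). Without Hep3B 2 the AFP value was -0.52. IGF2, a fetal growth factor, had levels of 596 and 272 in Hep3B and 543 and 716 in scramble. GPC3, a cell-surface proteoglycan used to stain liver tumours, had levels of 395 and 299 in Hep3B and 515 and 454 in scramble. In CPM both IGF2 and GPC3 were higher in both scramble libraries, by 0.98 ± 0.55 and 0.85 ± 0.56 on the log2 scale (edgeR adjusted p = 0.282 and 0.37). By edgeR, 0 of the 4 had an unadjusted p below 0.05, against 2987 of all 13775 tested genes, and DESeq2 called 0.

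IGF2 transcripts were told apart by their start. Most counts went to the starts at positions 2138975 and 2137289 of chromosome 11 (minus strand, hg38). The former took 50.1% and 49.6% of IGF2 counts in Hep3B 1 and 2 and 61.7% and 67.7% in scramble 1 and 2. The latter took 41.6% and 41.9% in Hep3B and 31.8% and 26.7% in scramble. The shares of both starts did not overlap between the groups. With 2 libraries a group no exact test of these shares can reach a small p, and none was made. The start farthest upstream, at 2149604, had 17.5, 5.2, 13.8 and 10.4 expected counts.

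Of 25 oncofetal and tumour genes, 23 were tested and 22 had at least 1 CPM in every library. Besides IGF2, the highest were H19, at 3582 and 948 CPM in Hep3B and 7633 and 4123 in scramble, CD24, a cell-surface antigen of progenitor cells, at 786, 335, 602 and 915 CPM, and SOX4 (below). The mRNA-binding proteins IGF2BP1 and IGF2BP3 were at 259 to 534 and 69.4 to 174 CPM. TERT, the catalytic subunit of telomerase, was at 1.42 to 4.45 CPM. None of the 23 was called by edgeR, where 4.15% of all tested genes were. At an unadjusted p below 0.05 by edgeR, 2 were higher and 2 lower in scramble, against 999 and 1988 of all 13775. DESeq2 called 1 lower, against 473 of all 13775. The median log2 fold change was 0.36, against -0.03 over all tested genes. It was -0.05 without Hep3B 2, 0.13 without scramble 2 and 0.92 without Hep3B 1.

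Secreted liver proteins were expressed in every library, and more of them were higher than lower after scramble siRNA. Of 51 listed genes, 43 were tested and 39 had at least 1 CPM in all 4 libraries. Both scramble libraries lay above both Hep3B libraries for 27 of the 43, where 27.8% of all tested genes did, and the median log2 fold change was 1.01. That median was 0.66 without scramble 1 and 0.57 with the offsets, where 12 members were below 0. SERPINA1, the antitrypsin gene, had levels per length of 3236 and 2684 in Hep3B and 3422 and 2867 in scramble, and its groups overlapped. TF, transferrin, was at 3266, 639, 2060 and 1845 CPM. TTR, the carrier of thyroxine and retinol-binding protein, was at 19.4 and 17.6 CPM in Hep3B and 57.8 and 52.7 in scramble (edgeR adjusted p = 0.139). At the low end, haptoglobin (HP) had 3, 1, 14 and 3 counts and plasminogen (PLG) 1, 4, 4 and 2. The passing members are given with the differences below.

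All 26 hepatocyte transcription factors in both tables had at least 1 CPM in every library. HNF4A was at 180 and 161 CPM in Hep3B and 557 and 330 in scramble, a log2 fold change of 1.38 ± 0.58 that did not pass (edgeR adjusted p = 0.138). HNF4A uses an upstream promoter, common in fetal liver, and a downstream one typical of adult hepatocytes. The upstream start, at position 44355801 of chromosome 20 (plus strand, hg38), took 49.7% and 40.1% of HNF4A counts in Hep3B 1 and 2 and 36.5% and 38.3% in scramble 1 and 2. The downstream start at 44401256 took the rest, so both forms were present throughout. FOXA1, a pioneer factor, was at 149, 53.0, 114 and 206 CPM, and ONECUT2 at 166, 95.9, 57.2 and 184 CPM. Scramble 1 was the low library for ONECUT2 and Hep3B 2 for FOXA1. CEBPA rose and ZBTB20 fell, as described with the differences.

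Enzymes of the mature hepatocyte were mostly low. Of 48 listed genes, 28 were in both tables, 20 were tested and 12 had at least 1 CPM in all 4 libraries. The median log2 fold change of the 20 was 0.85. Both scramble libraries lay above both Hep3B libraries for 10, where 27.8% of all tested genes did. EdgeR called 1 higher, where 0.857% of all tested genes were, and DESeq2 called 4, against 219 of all 13775. At an unadjusted p below 0.05 by edgeR, 7 were higher and 0 lower, against 999 and 1988 of all 13775. Without Hep3B 1 the median was 1.78 and without Hep3B 2 0.44. CYP2B6, a drug-metabolising cytochrome, was the highest, at 268 and 24.4 CPM in Hep3B and 249 and 190 in scramble. Hep3B 2 was its low library. ASS1 of the urea cycle was at 171, 73.8, 205 and 120 CPM and ASL, its next enzyme, at 32.6 and 27.1 in Hep3B and 148 and 71.4 in scramble. CPS1, which starts the urea cycle, had 1, 10, 17 and 12 counts.

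Markers of other cell types ranged widely. KRT19, a keratin of bile ducts and progenitor cells, was at 299 and 222 CPM in Hep3B and 1099 and 589 in scramble (log2 fold change 1.69 ± 0.57, edgeR adjusted p = 0.0614). EPCAM and SOX9 were at 134 to 382 and 51.8 to 231 CPM, and KRT7 at 1.37 to 4.2 CPM. The 3 stromal markers in both tables summed to 4.11 to 9.03 CPM. The only endothelial marker in both tables, PECAM1, had 10, 1, 3 and 2 counts. Of the 3 immune markers in both tables, CD68, a lysosomal protein also made outside the immune system, was at 26.8 to 72.2 CPM, LYZ at 5.81 to 43.2 and CD14 at 1.05 to 4.89. The leukocyte markers PTPRC and CD3E were not in both tables. The 2 neuronal markers, SNAP25 and SYT1, summed to 4.64 to 15.3 CPM. All 4 libraries are bulk RNA of the Hep3B line, so these values do not count cells of other types. Expression in few of the cells and low expression in all of them cannot be told apart.

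**Figure D3:**
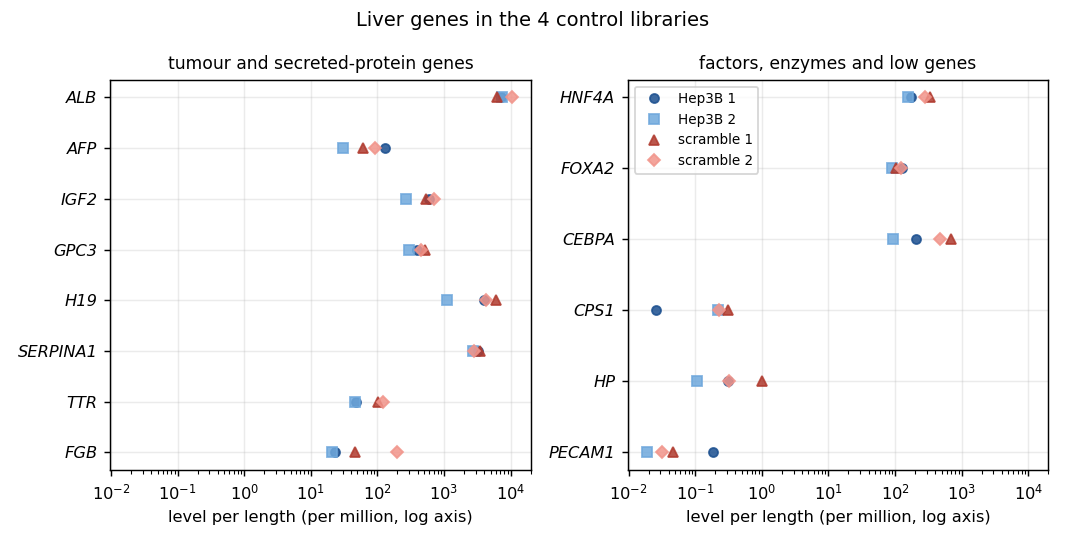
Levels per length (horizontal log axis, scaled to the same total in every library) of named liver genes, a low group and the endothelial marker PECAM1, with 1 point per library. ALB lies near the top in every library, AFP spans 30.0 to 131, and CEBPA lies at 210 and 94.7 in Hep3B and at 695 and 473 in scramble.

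Among the genes tied to the genotype of the line, RB1 had 224, 94, 18 and 48 counts. RB1 had a log2 fold change of -2.24 ± 0.79 that did not pass (edgeR adjusted p = 0.0726). CDKN2A, an inhibitor of kinases that act on RB1, was at 229, 162, 374 and 200 CPM. CTNNB1, beta-catenin, was at 129, 127, 123 and 178 CPM, and CDKN1A, an inhibitor of cyclin-dependent kinases, at 70.2, 72.9, 55.7 and 40.9. Of the 12 listed genes, 8 had a log2 fold change above 0 and 4 below, with a median of 0.34. At an unadjusted p below 0.05 by edgeR, 1 was higher and 2 lower, against 999 and 1988 of all 13775. Among targets of the Wnt pathway, GLUL was at 417 and 266 CPM in Hep3B and 751 and 556 in scramble. AXIN2 was at 2.85 and 1.72 CPM against 3.32 and 4.25 and did not pass (edgeR adjusted p = 0.588). SP5, a Wnt target, was the only one of the 12 that passed, where 0.857% of all tested genes were called higher. It rose from 5.11 and 2.32 CPM to 26.5 and 18.2 (log2 fold change 2.59 ± 0.75, edgeR adjusted p = 0.028).

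Of the genes the study turns on, none passed. SOX4, a developmental transcription factor, was at 742 and 254 CPM in Hep3B 1 and 2 and 305 and 897 in scramble 1 and 2. Hep3B 1 and scramble 2 were the high libraries, and the log2 fold change was 0.27 ± 0.56 (edgeR adjusted p = 0.803). It was -0.69 without scramble 2 and -0.30 without Hep3B 2. STAT6, which carries the interleukin-4 signal, was at 29.7 and 12.6 CPM in Hep3B and 47.1 and 34.5 in scramble (0.95 ± 0.66, edgeR adjusted p = 0.396). MTHFD2, a mitochondrial enzyme of folate metabolism, was at 676, 484, 170 and 502 CPM. Scramble 1 was its low library, and the value of -0.79 ± 0.56 (edgeR adjusted p = 0.409) was -0.19 without that library.

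Between the groups, edgeR called 572 of 13775 genes, or 4.15%, of which 118 (0.857%) were higher and 454 (3.3%) lower in scramble. The lower genes included chaperones, enzymes of cholesterol synthesis, hypoxia genes and inflammatory genes, and the higher ones included fibrinogen chains, actins and CEBPA. The groups did not overlap for 57.2% of all tested genes (27.8% higher and 29.4% lower), and for 538 of the 572. The count changed with each library left out. Without scramble 1 edgeR called 0 genes, with 837 at an unadjusted p below 0.05. Without scramble 2 it called 975, without Hep3B 1 93 and without Hep3B 2 37. With offsets for GC content and length it called 0, with 2330 at an unadjusted p below 0.05, although all 572 kept their sign. A fit of all 8 libraries called 6, all lower, and DESeq2 on the 4 controls called 692 (219 higher, or 31.6% of calls against 20.6%). Genes called lower had a median GC content of 40.4% and those called higher 59.0%, against 49.3% over all tested genes.

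Chaperones of the endoplasmic reticulum were lower in both scramble libraries, whereas cytosolic ones were high in Hep3B 2 alone. All 27 tested members of the unfolded protein and heat shock list had a log2 fold change below 0, with a median of -1.75. Of these, 13 passed, all lower in scramble, where 3.3% of all tested genes did. Both scramble libraries lay below both Hep3B libraries for 18 of the 27, where 29.4% of all tested genes did. Without scramble 1 the median was -1.83 and without Hep3B 2 -0.97, and with the offsets it was -1.89 with all 27 below 0. By edgeR, 8 members passed without Hep3B 1, 4 without Hep3B 2, 5 without scramble 2 and 0 without scramble 1.

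Divided by place after the values were seen, the list held 16 proteins of the endoplasmic reticulum or its stress response and 11 cytosolic and mitochondrial chaperones. The 16 were high in both Hep3B libraries, with median deviations of 0.95 and 0.71 in Hep3B and -0.80 and -0.87 in scramble. Of the 16, 7 passed, all lower in scramble, where 3.3% of all tested genes did. HSPA5, the main chaperone of the endoplasmic reticulum, was at 2732 and 1820 CPM in Hep3B and 378 and 483 in scramble, a fall of 2.40 ± 0.58 on the log2 scale (edgeR adjusted p = 0.00482). HSP90B1, its HSP90 partner, was at 1148 and 1249 CPM in Hep3B and 69.4 and 216 in scramble. DNAJB9, a co-chaperone that restrains the stress sensor IRE1, was at 155 and 89.9 CPM against 5.21 and 12.7. For all 3 genes the lowest Hep3B library was several times the highest scramble library. DNAJC3, HERPUD1, CANX and SEL1L also passed, with log2 fold changes of -3.47, -1.97, -1.75 and -2.72. XBP1, a transcription factor of this response, and CALR, a lectin chaperone, had values of -0.07 and -0.56 that did not pass.

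The promoter of HSPA5 is printed because it holds the endoplasmic reticulum stress letters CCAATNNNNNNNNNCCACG, in capitals (chr9:125241294-125241593, minus strand, RefSeq, GRCh38.p14). These letters, on either strand, occur in 27 of 35116 windows (0.0769%) and in 9 of the 37 windows of the 27 list members, which belong to 7 genes: CALR, CANX, CRELD2, HSP90B1, HSPA5, PDIA6 and XBP1.
HSPA5: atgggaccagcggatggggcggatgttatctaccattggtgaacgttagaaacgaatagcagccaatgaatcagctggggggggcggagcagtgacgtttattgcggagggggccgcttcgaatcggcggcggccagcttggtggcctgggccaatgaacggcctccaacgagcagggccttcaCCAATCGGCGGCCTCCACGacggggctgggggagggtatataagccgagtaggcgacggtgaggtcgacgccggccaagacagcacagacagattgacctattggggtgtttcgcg
Of these 7 genes, CANX, HSP90B1 and HSPA5 passed.

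The 11 cytosolic and mitochondrial chaperones were high in Hep3B 2 alone, with median deviations of -0.92 in Hep3B 1, 2.07 in Hep3B 2, -0.36 in scramble 1 and -0.48 in scramble 2. Without Hep3B 2 the median of the 11 was 0.58, with 4 of them below 0 and 0 called by edgeR. HSP90AA1, the inducible cytosolic HSP90, was at 719 and 4708 CPM in Hep3B and 185 and 548 in scramble. HSPA1B, an inducible HSP70, was at 85.8, 2085, 196 and 114 CPM, and its near-identical copy HSPA1A, with which it shares reads, moved alike. Both were called lower, by 2.81 and 2.87 on the log2 scale, but without Hep3B 2 the values were 0.85 and 0.80. BAG3, a co-chaperone, behaved in the same way (-2.09, and 0.58 without Hep3B 2). HSPH1 and DNAJA1 passed at -3.29 and -1.83 with groups that did not overlap, and were -1.79 and -0.85 without Hep3B 2. HSPA8, the constitutive HSP70, was at 940, 2911, 1641 and 1583 CPM and did not pass.

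HSPA6, an HSP70 gene that is nearly silent until heat shock or proteotoxic stress, was the largest fall by the fitted value, at -8.63 ± 0.87. It had 19, 7403, 14 and 2 counts in Hep3B 1, Hep3B 2, scramble 1 and scramble 2, so the value came from Hep3B 2 and was -1.12 without it. Its promoter (chr1:161524290-161524589, plus strand, RefSeq, GRCh38.p14) is printed with the heat shock letters TTCNNGAA in capitals. These letters read the same on both strands and occur in 7.74% of all windows.
HSPA6: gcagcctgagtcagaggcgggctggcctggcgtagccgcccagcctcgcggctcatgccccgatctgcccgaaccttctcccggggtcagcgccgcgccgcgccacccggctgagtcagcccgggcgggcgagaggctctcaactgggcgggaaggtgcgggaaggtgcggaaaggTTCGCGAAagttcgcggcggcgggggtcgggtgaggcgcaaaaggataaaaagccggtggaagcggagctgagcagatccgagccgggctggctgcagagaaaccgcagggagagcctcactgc
Among the 27 list members the letters were in 5 of 37 windows, those of CANX, DNAJA1, HSP90AA1, HSPA8 and HSPD1.

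Cholesterol synthesis genes were lower in scramble. Of the 34 tested members of the list of cholesterol synthesis and SREBP targets, 29 had a log2 fold change below 0 (median -1.10). Of the 34, 10 passed, all lower, where 3.3% of all tested genes did. Both scramble libraries lay below both Hep3B libraries for 22, where 29.4% of all tested genes did. HMGCS1, an early enzyme of the route, was at 751 and 2510 CPM in Hep3B and 94.8 and 503 in scramble, a fall of 2.45 ± 0.58 on the log2 scale (edgeR adjusted p = 0.0041). Hep3B 2 was the high library and scramble 1 the low one, while Hep3B 1 and scramble 2 lay closer together. IDI1, SQLE, CYP51A1, MSMO1 and SC5D, later enzymes of the same route, passed at -2.72, -1.91, -2.36, -2.75 and -3.14. INSIG1, which holds back SREBP processing, STARD4, a sterol carrier, and ELOVL6, a fatty acid elongase, passed at -2.75, -3.23 and -2.57. Without Hep3B 2 the values were -1.33 for HMGCS1, -1.67 for IDI1, -1.78 for MSMO1, -1.53 for INSIG1 and -1.39 for ELOVL6. Without scramble 2 they were -4.06 for HMGCS1, -4.08 for IDI1, -3.61 for CYP51A1 and -4.79 for SC5D.

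Other members of that list did not pass. SCD, which desaturates fatty acids, was at 2974 and 5446 CPM in Hep3B and 998 and 1643 in scramble with no overlap, and missed the threshold (edgeR adjusted p = 0.0575). FASN, fatty acid synthase, was at 873, 2564, 1424 and 1330 CPM. The 10 members that passed had GC contents of 34.7% to 46.5%. The list median without Hep3B 2 was -0.61 with 0 passing by edgeR, and with the offsets it was -1.46 with 33 of 34 members below 0. Without Hep3B 1 and scramble 2, 6 and 7 members passed. The sterol letters TCACNCCAC, on either strand, were in 1.13% of all windows and in the window of SREBF2 only among 27 members with a window.

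Hypoxia genes set Hep3B 1 apart. Of 30 tested members of the hypoxia and glycolysis list, 12 passed, all lower in scramble, where 3.3% of all tested genes did. The median over the list was -1.50. The median deviation was 1.63 in Hep3B 1 and -0.58, -0.43 and -0.46 in Hep3B 2, scramble 1 and scramble 2. Without Hep3B 1 the median was 0.55 and edgeR called 0 members, and without Hep3B 2 it was -2.13 with 7 called. Without scramble 2, 3 members were called. NDRG1, a stress-induced gene, was at 763, 32.8, 88.2 and 53.5 CPM, and ADM, adrenomedullin, at 173, 8.48, 19 and 15.7. For both genes Hep3B 2 was the lowest library, and without Hep3B 1 their log2 fold changes were 1.11 and 1.04. ANKRD37 did the same (-3.20, and 0.83 without Hep3B 1). PDK1, a kinase that inhibits pyruvate dehydrogenase, was at 112 and 6.41 CPM in Hep3B and 1.88 and 5.52 in scramble. PFKFB4, a regulator of glycolysis, was at 105, 7.78, 3.07 and 2.78 CPM, and BNIP3L, a receptor for mitophagy, at 227 and 45.2 against 5.46 and 9.91.

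KDM3A, a histone demethylase, P4HA1 and P4HA2, collagen prolyl hydroxylases, ERO1A, an oxidase of protein folding, BNIP3, a paralog of BNIP3L, and HK2, a hexokinase, completed the 12, at -3.04, -2.96, -2.07, -2.72, -2.39 and -2.09. Without Hep3B 1 the values were -1.71 for P4HA1, -1.02 for ERO1A, -1.19 for BNIP3 and -0.27 for HK2. Those of PDK1, PFKFB4 and BNIP3L went from -3.99, -4.26 and -4.14 to -0.77, -1.40 and -2.55. P4HA2 was -1.19 without Hep3B 2. P4HA2 was the exception in order, with 58.1 CPM in Hep3B 1 and 156 in Hep3B 2 against 32.0 and 19 in scramble. Divided after the values were seen, the 12 tested glycolytic enzymes, HK2 included, had a median of 0.24 against -2.38 for the other 18 genes. The enzyme median was -0.21 without scramble 1, -0.05 without Hep3B 2 and -0.37 with the offsets. That of the other 18 was -2.41, -3.17 and -2.25 in the same fits. Without Hep3B 1 the medians were 0.62 for the enzymes and 0.14 for the others. GAPDH, ENO1, ALDOA and PKM, the highest of the enzymes, had values of 0.66, 0.25, 0.24 and 0.66. VEGFA, the vascular growth factor, was at 1125, 204, 192 and 309 CPM and did not pass (edgeR adjusted p = 0.124).

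The promoter of ANKRD37 (chr4:185396591-185396890, plus strand, RefSeq, GRCh38.p14) is printed because it holds the hypoxia letters ACGTG, in capitals, 3 times when both strands are read. In its leftmost match the letters overlap their own reverse complement. They occur in 21.4% of all windows and in 20 of the 42 windows of list members.
ANKRD37: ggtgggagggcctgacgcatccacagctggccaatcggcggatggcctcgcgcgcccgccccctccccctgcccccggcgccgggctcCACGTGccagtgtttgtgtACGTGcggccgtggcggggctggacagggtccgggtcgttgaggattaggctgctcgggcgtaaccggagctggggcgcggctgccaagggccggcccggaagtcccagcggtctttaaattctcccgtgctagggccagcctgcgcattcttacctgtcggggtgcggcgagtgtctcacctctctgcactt
Counted by gene, 17 of the 27 list members with a window held the letters. Among the 12 genes that passed, 10 had a window and 6 of those held the letters, a similar share: ANKRD37, BNIP3, ERO1A, HK2, P4HA1 and PDK1.

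**Figure D4:**
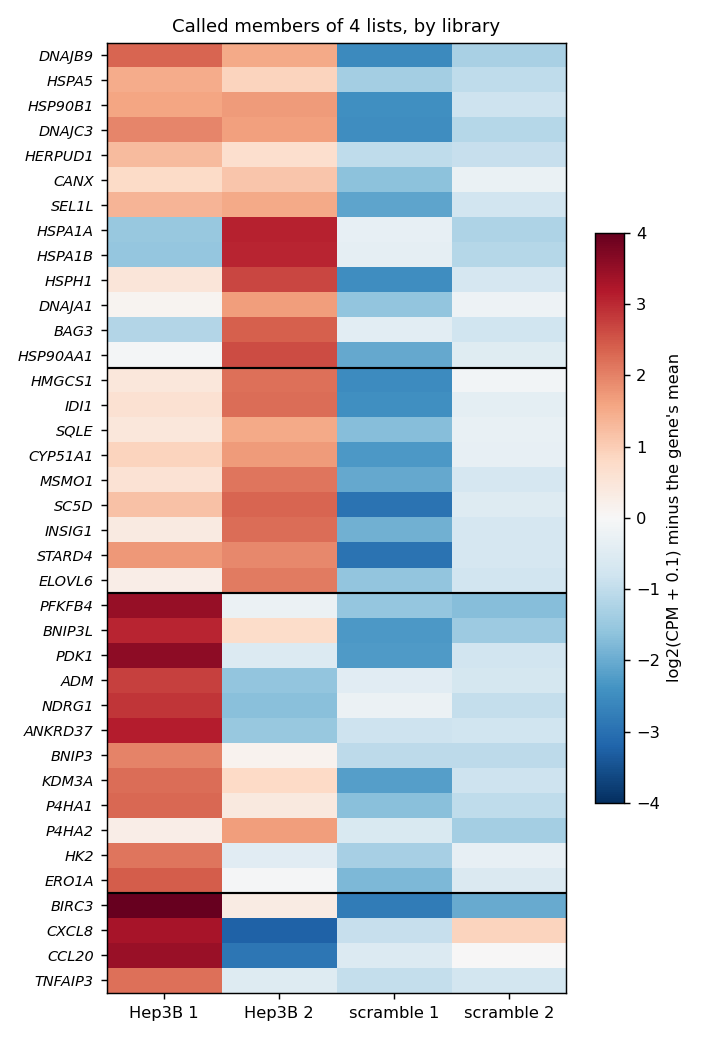
Heat map of 38 of the 39 called members of the chaperone, cholesterol, hypoxia and inflammatory lists (rows, divided by black lines) in the 4 libraries (columns). Colour is log2(CPM + 0.1) minus the gene's mean: red is high, blue is low, and the scale ends at 4 on either side. The endoplasmic reticulum genes from DNAJB9 to SEL1L are red in both Hep3B columns, the heat shock genes and the cholesterol genes are reddest in Hep3B 2, and most hypoxia and inflammatory genes in Hep3B 1.

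Inflammatory genes followed Hep3B 1 as well. Of 18 tested members, 17 had a log2 fold change below 0 (median -1.13), and 4 passed, all lower, where 3.3% of all tested genes did. These were CXCL8, CCL20, TNFAIP3 and BIRC3. CXCL8, the neutrophil chemokine interleukin-8, was at 405, 4.29, 21.7 and 76.5 CPM, and CCL20, a chemokine for lymphocytes, at 629, 7.58, 38.8 and 57.2. Hep3B 1 and Hep3B 2 were the highest and the lowest library for both, so the groups overlapped although the genes were called. Without Hep3B 1 the values were 3.52 for CXCL8 and 2.67 for CCL20, and the list median was 0.43 with 0 called by edgeR. Without Hep3B 2, 2 members were called, and without scramble 2 edgeR called 0. BIRC3, an inhibitor of apoptosis induced by NF-kB, had 836, 48, 3 and 8 counts and TNFAIP3, an inhibitor of NF-kB, was at 81.2, 12.0, 8.97 and 10.3 CPM. Without Hep3B 1 their values were -2.99 and -0.31. ICAM1, an adhesion molecule, was at 649, 106, 145 and 104 CPM and did not pass, and IL32 was at 129, 185, 180 and 82.4. The acute-phase gene LCN2, which the siRNA table does not list, had 281 counts in Hep3B 1 and 1 in Hep3B 2.

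By edgeR, no tested gene of the interferon response list was called higher after scramble siRNA, where 0.857% of all tested genes were. At that share, the absence of higher calls says little about a list of this size. Of 46 listed genes, 28 were in both tables and 25 were tested. IFIT1, IFIT3, IFI44, IFI44L, OAS1, OAS2, OASL, RSAD2 and CXCL10 were among those not in both tables, so they were not tested. Of the 25, 2 passed, both lower, where 3.3% of all tested genes did. IFIH1, a sensor of long double-stranded RNA, was at 17.1 and 25 CPM in Hep3B and 1.69 and 6.79 in scramble (-2.30 ± 0.75, edgeR adjusted p = 0.0496, and -3.60 without scramble 2). HERC5, the ligase that attaches ISG15, was at 10.5 and 24.3 CPM against 1.07 and 4.93. The median was -0.40. At an unadjusted p below 0.05 by edgeR, 2 members were higher and 4 lower, against 999 and 1988 of all 13775. DESeq2 called 1 higher and 3 lower, against 219 and 473 of all 13775. LGALS3BP, the highest, was at 312 and 296 CPM in Hep3B and 842 and 475 in scramble, and IFITM3 at 210, 96.8, 282 and 144. ISG15, a ubiquitin-like protein, was at 22.4, 27.5, 68.0 and 26.3 CPM, with overlapping groups. At the low end, the antiviral gene MX1 was at 0.527 to 2.42 CPM.

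Of 19 tested sensors of double-stranded RNA and proteins of RNA interference, IFIH1 alone passed, lower in scramble, where 3.3% of all tested genes did. The list median was -0.51. DDX58, the RIG-I sensor, was at 10.1 and 7.58 CPM in Hep3B and 2.70 and 5.08 in scramble, and EIF2AK2, the kinase PKR, at 14.4, 27.9, 6.27 and 16.1. ADAR, which edits double-stranded RNA, was at 326, 518, 394 and 406 CPM, and XPO5, which exports microRNA precursors, at 143, 168, 183 and 179. TNRC6A, a partner of the Argonaute proteins, was at 95.6, 202, 29.9 and 97.8 CPM. AGO2, the slicer of RNA interference, was at 55.5, 47.1, 48.4 and 82.0 CPM. MAVS, the adaptor of the RNA sensors, was at 185 and 144 CPM in Hep3B and 326 and 346 in scramble (1.03 ± 0.58, edgeR adjusted p = 0.275). With the offsets the list median was 0.06.

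EdgeR called 3 ATF4 targets, 3 immediate early genes and 0 genes of lysosome and endocytosis. Of 39 ATF4 targets 3 passed, all lower, where 3.3% of all tested genes did, and the list median was -0.30. DDIT3, a transcription factor of the stress response, was at 148 and 107 CPM in Hep3B and 28.7 and 20.3 in scramble. ATF3 was at 312 and 178 CPM against 43.9 and 87.7, and the cystine transporter SLC7A11 also passed. ATF4 itself was at 1523 and 1210 CPM in Hep3B and 1416 and 1210 in scramble. GDF15, a stress hormone, was at 3368, 301, 1088 and 1161 CPM, with Hep3B 1 high and Hep3B 2 low. TRIB3 and SLC1A5 had values of -0.67 and 0.44 that did not pass. Of 28 immediate early genes 3 passed, all lower (ATF3, KLF4 and DUSP5), where 3.3% of all tested genes did. Their list median was 0.06, and DUSP5 was 0.44 without Hep3B 1. IER3 was at 501, 12.9, 319 and 234 CPM, and MYC at 423, 242, 368 and 402. JUND was at 372, 257, 448 and 388 CPM, and CTGF, a matrix protein, at 383, 48.5, 296 and 471. Of 25 genes of lysosome and endocytosis edgeR called 0, where 4.15% of all tested genes were called, and DESeq2 called 0. At an unadjusted p below 0.05 by edgeR, 1 was higher and 1 lower, against 999 and 1988 of all 13775. SQSTM1, a receptor for autophagy, was at 1477, 1779, 2316 and 1721 CPM and CTSD, a lysosomal protease, at 693, 601, 1566 and 847. PSAP, a precursor of sphingolipid activators, and LAMP1, a lysosomal membrane protein, had values of 0.11 and 0.80 that did not pass.

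Among the genes that rose were plasma proteins. Of 43 tested, 5 were called higher and 1 lower, where 0.857% and 3.3% of all tested genes were. The fibrinogen chains FGA and FGB were at 69.2 and 37.2 CPM and at 19.2 and 16.3 CPM in Hep3B, and at 149 and 340 and at 53.8 and 175 in scramble, rises of 2.20 ± 0.61 and 2.69 ± 0.66 (edgeR adjusted p = 0.0188 and 0.00608). Scramble 2 was the highest library for both, unlike most rises, and with the offsets the values were 2.26 and 3.35. Without scramble 2 FGB was 1.63. The remaining chain, FGG, was at 15.7, 21.7, 28.5 and 65.1 CPM and did not pass. HPX, which binds haem, ORM2, an acute-phase protein near-identical to ORM1, and F2, prothrombin, rose by 2.42, 2.22 and 2.29. CP, the copper carrier ceruloplasmin, was called lower, at 282, 13.4, 8.03 and 29.2 CPM, and its value of -2.99 was 0.48 without Hep3B 1. Without scramble 2 and Hep3B 2, 6 members and 1 passed, and without Hep3B 1 edgeR called 0.

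CEBPA, a factor that keeps hepatocytes differentiated, rose from 234 and 98.0 CPM to 1095 and 558 (2.32 ± 0.59, edgeR adjusted p = 0.00935). The CEBPA value was 1.77 without scramble 1 and 3.08 without Hep3B 1. ZBTB20, a repressor of AFP in the liver after birth, fell from 37.8 and 48.3 CPM to 2.82 and 16.5 (-2.15 ± 0.69, edgeR adjusted p = 0.0493, with -1.35 without scramble 1 and -3.89 without scramble 2).

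Among the cell cycle, ribosomal protein and reference genes, edgeR called 2, 0 and 1. Both scramble libraries lay above both Hep3B libraries for 19 of 37 cell cycle genes, where 27.8% of all tested genes did, and the list median was 0.36. Of the 37, 2 passed, both higher in scramble, where 0.857% of all tested genes did: PLK1, a mitotic kinase, at 40.9 and 77.8 CPM in Hep3B and 387 and 176 in scramble, and CDC20, which opens the way to anaphase, at 33.4 and 65.0 against 276 and 118. The replication helicase genes MCM7, MCM3, MCM4 and MCM2 had values of 0.36, 0.62, 0.34 and 0.51 that did not pass. MKI67, a marker of cycling cells, was at 70.9, 180, 65.7 and 186 CPM. Of 77 cytosolic ribosomal proteins 75 had a log2 fold change above 0, and edgeR and DESeq2 called 0. The list median was 0.69, but 0.30 without scramble 1, 0.30 with the offsets and 1.09 without scramble 2. At an unadjusted p below 0.05 by edgeR, 4 were higher and 0 lower, against 999 and 1988 of all 13775. The summed CPM of the 77 was 43995 and 28522 in Hep3B and 74052 and 43498 in scramble, so scramble 1 was high and Hep3B 2 low. RPL4, RPLP0, RPL8 and RPL13, the highest, had values of 0.58, 0.60, 0.94 and 0.94. Of 14 reference genes only ACTB passed, higher in scramble, where 0.857% of all tested genes did. It was at 2858 and 3745 CPM in Hep3B and 14631 and 10165 in scramble (1.91 ± 0.56, edgeR adjusted p = 0.0297). ACTG1, the other cytoplasmic actin, rose by 1.89. B2M, PPIA and TBP had values of -0.11, 0.70 and -0.16.

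Over all genes, 410 called genes had a mean of at least 100 counts a library and groups that did not overlap, 91 higher and 319 lower. Besides HABP2 and FGB, of blood clotting, the 15 largest rises were C2orf54, FAXDC2, FUOM, TGM2, CRABP1, LOC100130111, SLCO2B1, MFSD3, FAM173A, TMEM160, COMTD1, KIF12 and CCDC61, with log2 values from 2.67 to 3.32. TGM2, which cross-links proteins, was at 7.06 and 2.88 CPM in Hep3B and 51.7 and 35.2 in scramble. HABP2, a plasma serine protease, was at 14.9 and 27.7 CPM against 170 and 120, and SLCO2B1, an uptake transporter of the hepatocyte, at 1.32 and 2.88 against 22.4 and 11.2. CRABP1, a carrier of retinoic acid, was at 1.11 and 1.31 CPM against 13.9 and 6.84. Scramble 1 was the highest library for all 15 but FGB. FAXDC2 (3.29) and TGM2 (3.13) were 3.26 and 2.87 with the offsets.

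The 15 largest falls included HSPA6, BIRC3, PFKFB4, BNIP3L, PDK1 and DNAJB9, described above. MAP1B, a microtubule-associated protein, had 290 and 572 counts in Hep3B and 4 and 15 in scramble. KLHDC7B had 439 and 500 counts against 16 and 2, and the uncharacterised LOC105376575 had 267 and 405 against 6 and 6. LAMP3, a lysosomal membrane protein, was at 38.1 and 117 CPM against 3.57 and 3.17, and PEG3, an imprinted zinc finger gene, at 13.0 and 35.5 against 0.376 and 2.00. C7orf60, FAM129A, AOC3 and ZSCAN12P1 completed the 15, at -4.61, -3.94, -3.88 and -3.80. Without Hep3B 2, AOC3 was -2.36 and ZSCAN12P1 -2.03. Of these, C7orf60, KLHDC7B, LAMP3, LOC105376575 and MAP1B, were among the 6 genes called in the fit of all 8 libraries, where the sixth was TNFRSF9, a receptor of the tumour necrosis factor family. In that fit with the offsets 3 genes passed, KLHDC7B, LOC105376575 and DDIT3. For C7orf60, KLHDC7B, LAMP3, LOC105376575 and MAP1B no left-out library turned the direction, which their choice among genes without overlap had fixed in advance.

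Some genes were listed in only 1 of the tables. The knockout table holds 1214 genes that the siRNA table does not list, and 129 genes are in the siRNA table alone. After LCN2, the largest in the controls of the knockout table was PPFIA4, with 171 counts in Hep3B 1 and 0 in Hep3B 2. The largest of the siRNA table was ANO1, a chloride channel, with 51 and 50 counts in scramble 1 and 2. Together such genes took at most 0.0395% of the counts of a library.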

How the data were processed

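RNA was purified with TRIzol, and libraries were made with a stranded mRNA kit. Expected counts (estimates per RefSeq transcript, without normalization) were deposited by the authors in a knockout table and an siRNA table. The submitters' processing notes name STAR, Partek and hg38, with no versions. Every transcript listed had a sum of at least 10 over the 4 libraries of its table. The values were summed per gene over genes in both tables (14826) and rounded. The design had assumed counts, and the same test was used on expected counts. Reads shared by near-identical genes are divided by estimation, so such genes are uncertain.

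The main fit was edgeR 4.0.16 in R 4.3.3 (filterByExpr, TMM, estimateDisp, glmQLFit, glmQLFTest), scramble against Hep3B, on the 4 controls. Genes were called at a Benjamini-Hochberg adjusted p below 0.05, and the common dispersion was 0.2. CPM is TMM-scaled, and log2 CPM has a prior count of 2. Fold changes are scramble against Hep3B. Level per length used GENCODE release 29 transcript lengths (93.6% of transcripts by their own accession). Named genes were the 20 highest levels, the 4 markers, the 15 largest rises and falls among called genes averaging 100 counts or more without overlap, the 4 highest and the called members of each list, SOX4, STAT6 and MTHFD2, and genes of the background. Others, such as AGO2, VEGFA, MKI67, MX1 and those of low counts, were picked with their values in view. The members and lists were chosen with earlier results of these data known. Alternatives were DESeq2 1.42.0, size factors by upper quartile or by median of ratios, the replicate block, a filter of 10 counts in each library or none, all 8 libraries, offsets for GC content and length (mgcv 1.9.3), robust = TRUE, legacy = TRUE, transcripts in both tables only, a minimum absolute log2 fold change of 1 and leaving out each library. Scripts were tested on simulated data. A few genes that these rules name are not reported here, although they stay in every count and median.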

Additional observations from a re-analysis of the deposited data

How the results depend on the processing

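Of 572 called genes, leaving out 1 library gave from 0 (without scramble 1) to 975 (without scramble 2) calls. Offsets for GC content and length gave 0 calls, 1 with the replicate block (KLHDC7B) and 3 with all 8 libraries, and the fit of all 8 without offsets gave 6. A minimum absolute log2 fold change of 1 gave 73. After the data were seen, offsets without scramble 1 were added and gave 0, with 475 at an unadjusted p below 0.05. The other settings gave 414 (at least 10 counts in every library) to 692 (DESeq2) calls, among them 603 with the replicate block. The library numbers did not pair the samples (correlation of deviations -0.012), so the block stands only as an alternative. Fewer samples entered each fit with a library left out; the cause of the other drops was not tested.

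For 90 genes (the called list members, the largest rises and falls, the markers and the study genes), 19 of 1431 values under other settings turned sign. Other genes with a printed fold change, all of them uncalled or outside these sets, were not recomputed one by one. With 1 library left out, the values ran from -4.19 to 0.48 for CP, -3.23 to 3.52 for CXCL8, -3.71 to 2.67 for CCL20, -3.47 to 0.44 for DUSP5, -3.31 to 1.04 for ADM, -3.43 to 1.11 for NDRG1 and -4.15 to 0.83 for ANKRD37, each highest without Hep3B 1. They ran from -3.81 to 0.80 for HSPA1A, -3.75 to 0.85 for HSPA1B and -2.97 to 0.58 for BAG3, highest without Hep3B 2. AFP ran from -0.52 (without Hep3B 2) to 1.73, and SOX4 from -0.69 (without scramble 2) to 1.25, with -0.30 without Hep3B 2. With offsets and the replicate block CXCL8 was 1.37, CCL20 0.61 and MTHFD2 0.13. MTHFD2 was 0.12 with offsets, 0.10 with offsets and all 8 libraries, and 0.30 with offsets and without scramble 1. Of the other values, 694 kept their direction but not the call and 718 kept both. Ranked without length, 10 of the 20 highest genes stayed. With 2 libraries a group, intervals of low genes are wide.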
